A study of Mus musculus with 4 samples.

Results

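The killer lectin-like receptors are C-type lectin proteins on natural killer (NK) cells, on other innate lymphocytes and on some T cells. They were read here as the genes whose symbol starts with Klr, without Klrg1, a rule that uses no measured value. It took 21 of the 19059 genes counted, namely 8 Klra genes (the Ly49 receptors Klra2, Klra3, Klra4, Klra5, Klra6, Klra7, Klra8 and Klra17), 5 Klrb1 genes (Klrb1, Klrb1a, Klrb1b, Klrb1c and Klrb1f), Klrc1, Klrc3, Klrd1, Klre1, Klrg2, Klri1, Klri2 and Klrk1. Of these, 20 had at least 50 unique molecular identifiers (UMIs) over the NK-like, ILC1-like, CD8, CD4 and double-negative T cells, the 5 classes described below, and Klrg2 had 20. The totals ran from 13034 for Klrd1 to 50 for Klra17.

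The cells came from MC38 tumors, a transplanted mouse colon carcinoma, in C57BL/6 mice of the humanized CTLA-4 line B-hCTLA-4, so that every group, the controls included, carried human CTLA-4. Mice received 0.5 × 1000000 tumor cells under the skin and, from tumors of about 100 mm3, 3 intraperitoneal treatments, and viable CD45+ cells were sorted on day 8 from the pooled tumors of 11 mice in each group. The groups were the isotype control (hIgG1, 10 mg/kg), 2 single antibodies and the combination of the anti-human CTLA-4 antibody ipilimumab (10 mg/kg) with the anti-mouse FcgRII antibody AT130-2 as mIgG1-N297A (20 mg/kg), a form with a silenced Fc domain. Each group was 1 library, and all 4 carry the same batch label. For the single antibodies, the title of each sample and its treatment field name opposite antibodies, and which library received ipilimumab could not be told. Single A is the library titled with anti-human CTLA-4 and single B the library titled with anti-mouse FcgRII. The article gives other numbers of tumors, another day, another starting size and other doses, and the labels were followed here. The age of the mice in these groups is not given in the sources used here. Sets of 4 values below stand in the order isotype, single A, single B and combination.

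Most of these genes lie side by side in the NK gene complex, and each NK cell switches on its own mixture of the Ly49 genes. Inhibitory members carry a motif that recruits the phosphatase Ptpn6 (SHP-1) when they meet MHC class I or a related ligand on a healthy cell. Activating members signal through adaptors, Tyrobp (DAP12) or Hcst (DAP10) for most of them and Fcer1g for Klrb1c (NK1.1). CD94, the product of Klrd1, pairs with NKG2A, the product of Klrc1, into an inhibitory receptor for Qa-1 (H2-T23) that is found on NK cells and on stimulated CD8 T cells. NKG2D, the product of Klrk1, is an activating receptor for ligands that stressed and transformed cells display. Members of the family have long served as NK cell markers, such as Klrb1c (NK1.1) in C57BL/6 mice, so no member was used to build the cell classes below.

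All 21 genes are on mouse chromosome 6 in GRCm38, and 20 of them lie between positions 128609227 and 131247362. Klrg2 stands apart at 38625693 to 38637242. The 150 bases before the annotated start of 4 Klra genes are shown because their sequences are close while their levels, given below, lie in different cells. Klra4 and Klra8 encode the activating receptors Ly49D and Ly49H, Klra17 encodes Ly49Q and Klra2 encodes Ly49B. The sequences are from RefSeq on GRCm38.p6, minus strand, written 5′ to 3′, and capitals mark bases that do not align to the same base in the Klra4 sequence. The windows are chr6:130067272-130067421 for Klra4, chr6:130129899-130130048 for Klra8, chr6:129876673-129876822 for Klra17 and chr6:131247363-131247512 for Klra2.
Klra4: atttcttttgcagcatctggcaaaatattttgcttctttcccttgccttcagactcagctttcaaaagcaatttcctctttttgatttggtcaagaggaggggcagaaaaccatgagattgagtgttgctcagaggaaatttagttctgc
Klra8: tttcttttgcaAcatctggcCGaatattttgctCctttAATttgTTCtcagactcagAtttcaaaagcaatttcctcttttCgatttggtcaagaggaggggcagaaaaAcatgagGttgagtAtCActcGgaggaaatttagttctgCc
Klra17: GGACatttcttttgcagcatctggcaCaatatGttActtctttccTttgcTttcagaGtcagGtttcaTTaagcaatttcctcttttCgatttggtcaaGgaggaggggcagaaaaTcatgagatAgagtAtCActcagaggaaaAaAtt
Klra2: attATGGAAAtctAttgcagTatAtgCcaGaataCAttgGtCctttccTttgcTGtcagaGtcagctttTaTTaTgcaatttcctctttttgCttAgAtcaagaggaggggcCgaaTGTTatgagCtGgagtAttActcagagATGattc
Aligned over these 150 bases, the Klra4 sequence had 87.3% identical bases with Klra8, 85.3% with Klra17 and 74.0% with Klra2.

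Outside the Klra genes, 5 upstream sequences held the letters TGTGGT, the core that Runx factors bind, or ACCACA, the same letters on the other strand. These were 5 of the 19 members that have an entry (26.3%), against 8.5% of 27025 entries of the same length over all genes. They belong to Klrb1a, Klrb1c, Klrk1, Klrc3 and Klrc1, and the 3 that lie together in the complex are shown, because each of these genes was higher in CD8 than in CD4 T cells in the test below. Capitals mark the match, all 3 are on the minus strand, and the windows are chr6:129623865-129624014, chr6:129643289-129643438 and chr6:129678974-129679123.
Klrk1: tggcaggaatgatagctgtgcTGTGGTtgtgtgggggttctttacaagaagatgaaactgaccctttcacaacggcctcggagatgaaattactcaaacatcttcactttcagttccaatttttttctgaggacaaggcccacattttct
Klrc3: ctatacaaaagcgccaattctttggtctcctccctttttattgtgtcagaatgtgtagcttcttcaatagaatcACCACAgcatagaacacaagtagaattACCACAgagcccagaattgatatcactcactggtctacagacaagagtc
Klrc1: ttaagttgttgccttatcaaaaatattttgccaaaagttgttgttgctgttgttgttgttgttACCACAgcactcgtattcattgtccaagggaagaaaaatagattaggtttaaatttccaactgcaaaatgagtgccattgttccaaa
A match is a description of the letters and not a bound site. Klrb1a and Klrb1c, which also hold a match, were not called between CD8 and CD4 T cells (edgeR, adjusted p = 0.859 and 0.205). Klre1, whose sequences hold none, was higher in CD8 T cells (edgeR, adjusted p = 1.34e-06). Other letters were counted in the same way and are not shown. GGAA (Ets) was found in 89.5% of the 19 members against 80.8% of all entries, and GATA in 57.9% against 36.1%. TATAAA was found in 10.5% against 8.1%, and TCACAC (T-box) in 5.3% against 7.6%. A second sequence of Klre1 holds the letters of TCACAC on the other strand and is not in that count, so the lower share is not secure. A link between the letters and the levels was not tested.

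The libraries held 8173, 6390, 6097 and 7630 cells and between 129151823 and 196362818 UMIs, and 26786 of the 28290 cells were kept. No full cell barcode was shared between libraries, and their droplet parts were shared by 712 to 1148 barcodes in each pair of libraries. Cells were clustered without any member of the family. Within the NK and ILC1 clusters, NK-like cells are those with a UMI of Eomes and none of Itga1 or Cd200r1, and ILC1-like cells have Itga1 or Cd200r1 and no Eomes. NK-like cells numbered 145, 182, 83 and 146, and ILC1-like cells 45, 61, 41 and 77. Within the T cell clusters, CD8 T cells numbered 132, 332, 99 and 251, CD4 T cells 235, 242, 99 and 113, and double-negative (DN) T cells, with no UMI of Cd4, Cd8a or Cd8b1, 85, 83, 57 and 91. A UMI of Foxp3 kept a cell out of the CD8 T class only. Cells of the T cell clusters with more UMIs of B cell markers than of Cd3d, Cd3e and Cd3g were left out of these classes. They numbered 47, 26, 21 and 16. These 5 classes hold 2599 cells. A cluster of 2154 cells that carried T cell and macrophage genes together, 834, 261, 371 and 688, entered no comparison. The T cell classes therefore leave out many cells with T cell genes, in numbers that differ between libraries. The effect on the ratios between libraries was not tested.

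The classes were described with marker lists, summed as UMIs per 1000000 UMIs of the class (CPM). Genes that define clusters or gates are among them, Eomes and Ncr1 in the NK cell list and Cd3d, Cd3e and Cd3g in the T cell list. The sums are therefore no independent check of the class names. The NK cell list stood at 10699 to 16330.1 CPM in NK-like cells, 2860.0 to 3550.5 in ILC1-like cells and 707 to 1377 in CD8 T cells. The T cell list stood at 363 to 387 in NK-like cells, 499 to 863 in ILC1-like cells and 4979 to 9178 in CD8 T cells. The ILC1 list, which holds both gate genes, stood at 2668 to 3257 in ILC1-like cells, 359 to 694 in NK-like cells and 1509 to 2368 in CD8 T cells. In DN T cells it stood at 2020 to 2749, which overlaps the ILC1-like cells. In DN T cells the gamma delta T cell list stood at 1376 to 1872 CPM, against 42.9 to 91.6 in CD8 T cells, so the DN T class holds markers of gamma delta T cells. Gates on 1 UMI depend on depth: cells of the same clusters that passed neither gate had the NK cell list at 9765 to 15923 CPM. Median UMIs per cell were 3737 in NK-like, 7796 in ILC1-like, 7391.5 in CD8 T, 4425 in CD4 T and 4070.5 in DN T cells. RNA of macrophages, the most abundant cells of these tumors, was present in every class. The 11 macrophage markers, none of them at 0, summed to 1889.9, 329, 4412 and 1864 CPM in NK-like cells, 5898, 2820.1, 6039 and 1706 in ILC1-like cells, 17254, 6832, 18904 and 12636 in CD8 T cells, 15276, 2893, 19544 and 12072 in CD4 T cells and 10117, 555, 9303 and 3383 in DN T cells, against 28116 to 37261 in monocytes and macrophages.

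Differences between classes were tested with edgeR's quasi-likelihood test on UMIs summed per class and library, with the library as a term, and p-values were adjusted by the Benjamini-Hochberg method over the 9442 genes tested. These p-values measure the spread between 4 libraries that also differ in treatment. Of the 21 members, 19 passed the filter on low counts. Levels of different genes are not compared, since the probes of each gene capture it with their own efficiency.

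**Figure D1:**
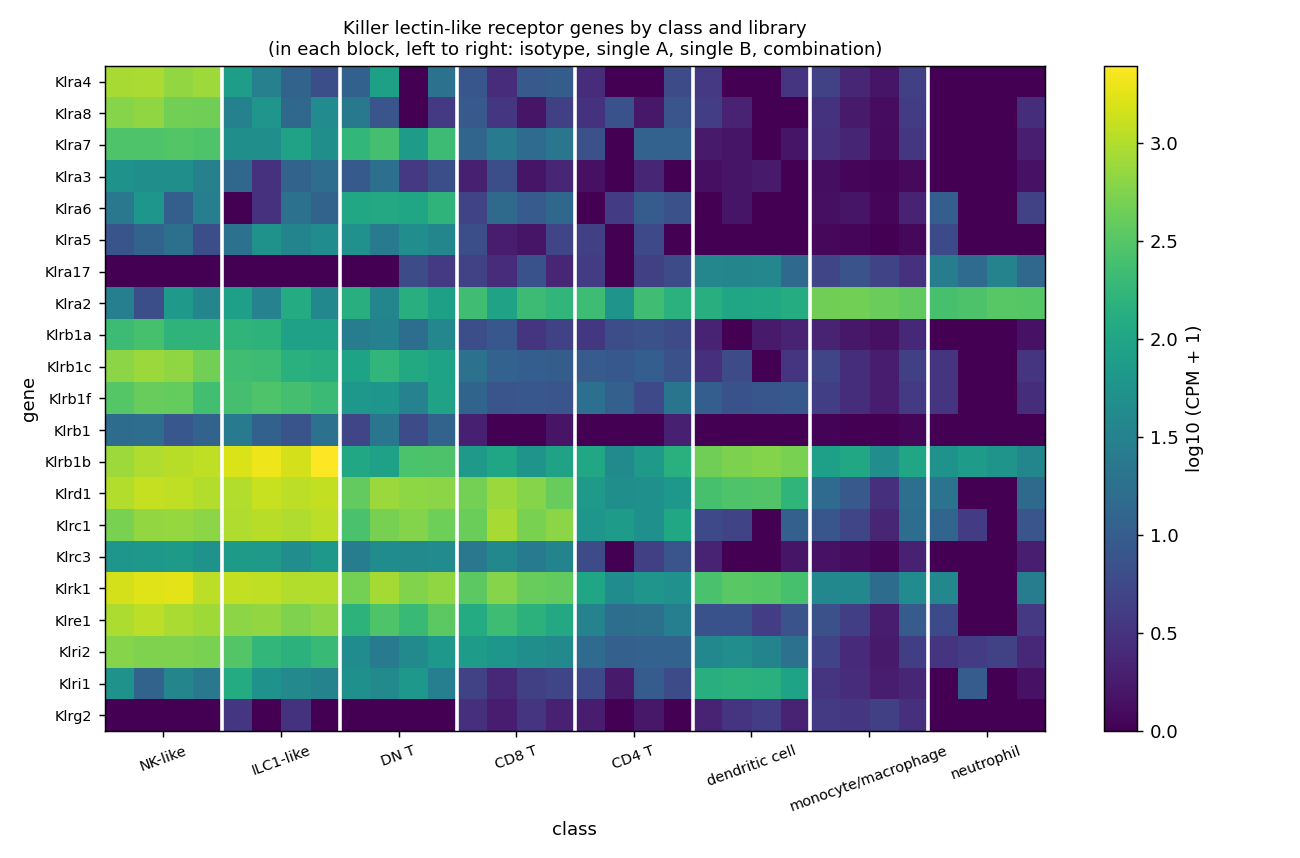
Level of each of the 21 members in 8 cell classes, with 1 column for each library, as log10(CPM + 1) by color. Brighter colors are higher levels. The Klra genes other than Klra2 and Klra17 are brightest in NK-like, ILC1-like or DN T cells. Klrd1, Klrc1 and Klrk1 are bright in all lymphocyte classes but CD4 T cells, and Klra2 is bright in monocytes, macrophages and neutrophils.

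The activating Ly49 receptors separated NK-like from ILC1-like cells more than any other members did. Klra4 (Ly49D) had 889, 919, 706 and 777 CPM in NK-like cells and 79.7, 29.2, 10.9 and 5.59 in ILC1-like cells. The ranges of the classes did not overlap, and Klra4 was lower in ILC1-like cells (edgeR, log2 difference -4.94 ± 0.51 (SE), adjusted p = 4.24e-06). Klra8 (Ly49H), known as the receptor for a cytomegalovirus protein, had 590.2, 669, 467 and 454 CPM in NK-like and 29.9, 58.5, 13.04 and 41.9 in ILC1-like cells. It too was lower in ILC1-like cells in each library (edgeR, log2 difference -3.92 ± 0.31 (SE), adjusted p = 1.82e-07). In the cells with UMIs of both gates Klra4 lay between the classes, at 237, 359, 207 and 123 CPM, and in cells with neither it had 489, 447, 624 and 571.

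Of the inhibitory Ly49 receptors, Klra7 and Klra3 were lower in ILC1-like cells and Klra5 was higher. Klra7 (Ly49G) had 283, 289, 302 and 290.0 CPM in NK-like and 47.3, 48.0, 89.1 and 47.5 in ILC1-like cells (edgeR, log2 difference -2.37 ± 0.34 (SE), adjusted p = 9.88e-05). Its level in NK-like cells hardly varied among the libraries. Klra3 (Ly49C) had 54.7, 48.4, 48.7 and 28.7 CPM in NK-like and 12.5, 2.09, 10.9 and 15.4 in ILC1-like cells (edgeR, log2 difference -2.02 ± 0.51 (SE), adjusted p = 0.0128), and 32 runs of 50 bases of its transcripts also occur in those of Klra8. Klra6 (Ly49F) had 21.6, 59.4, 9.73 and 27.4 CPM in NK-like and 0, 2.09, 17.4 and 11.2 in ILC1-like cells, where the 0 of isotype allows up to 7.48, with an overlap of the ranges and adjusted p = 0.0558 (edgeR). Klra5 (Ly49E), a receptor known from fetal and liver-resident innate lymphocytes, had 6.63, 11.1, 17.04 and 5.47 CPM in NK-like and 17.4, 52.2, 32.6 and 43.3 in ILC1-like cells. The ranges of Klra5 did not overlap, and it was higher in ILC1-like cells (edgeR, log2 difference 1.96 ± 0.60 (SE), adjusted p = 0.0351). This call was lost when any 1 of the 4 libraries was left out and without the library term, with log2 differences of 1.64 to 2.30.

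The Klrb1 genes encode NKR-P1 receptors, whose ligands are Clec2 proteins. Klrb1c (NK1.1), an activating member, had 627, 764, 674 and 473 CPM in NK-like and 224, 211, 143 and 129 in ILC1-like cells (edgeR, log2 difference -1.88 ± 0.15 (SE), adjusted p = 1.82e-07). Klrb1b, the inhibitory member that binds Clec2d, ran the other way, with 781, 986, 1056 and 1175 CPM in NK-like and 1595, 2008, 1478 and 2472 in ILC1-like cells (edgeR, log2 difference 0.89 ± 0.27 (SE), adjusted p = 0.0361). It was higher in ILC1-like cells of every library, and the ranges did not overlap. Klrb1a had 209, 251, 161 and 160.0 CPM in NK-like and 164, 157, 86.9 and 86.6 in ILC1-like cells (edgeR, log2 difference -0.71 ± 0.18 (SE), adjusted p = 0.0114). Its ranges overlapped, as did those of Klrb1f, a receptor for Clec2i, at 312, 402, 394 and 233 CPM in NK-like and 249.2, 288, 248 and 203 in ILC1-like cells (adjusted p = 0.187). Klrb1a, Klrb1b and Klrb1c share between 69 and 107 runs of 50 bases pairwise, so a part of their probes could be shared, and Klrb1b and Klrb1c overlap the gene model Gm44511.

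Among the receptors of the CD94 and NKG2 group, Klrc1 (NKG2A) had 506, 706, 711 and 629 CPM in NK-like and 962, 1080.0, 982 and 1143 in ILC1-like cells and was higher in the latter (edgeR, log2 difference 0.70 ± 0.18 (SE), adjusted p = 0.0137). Its partner Klrd1 (CD94) had 993, 1261, 1188 and 1016 CPM in NK-like and 1017, 1276, 1141 and 1210.2 in ILC1-like cells, a log2 difference of 0.04 ± 0.16 (SE) with adjusted p = 0.905 (edgeR). Klrk1 (NKG2D) had 1474, 1697, 1772 and 1131 CPM in NK-like and 1213, 1187, 998 and 1012 in ILC1-like cells, with adjusted p = 0.144. Klre1, which pairs with Klri1 into an inhibitory or with Klri2 into an activating receptor, had 947, 1145, 929.7 and 815 CPM in NK-like and 635, 691, 539 and 629 in ILC1-like cells and was lower in ILC1-like cells (edgeR, log2 difference -0.64 ± 0.20 (SE), adjusted p = 0.042). Klri2 had 589, 553, 552 and 509 CPM in NK-like and 304, 178, 152 and 201 in ILC1-like cells (edgeR, log2 difference -1.45 ± 0.16 (SE), adjusted p = 9.34e-06). The other partner, Klri1, had 53.0, 11.1, 34.1 and 21.9 CPM in NK-like and 122, 52.2, 39.1 and 32.1 in ILC1-like cells, with adjusted p = 0.0838. Klrc3 (NKG2E) ranged from 52.0 to 70.6 CPM in NK-like and 45.6 to 69.8 in ILC1-like cells. Klrc3 and Klrc1 share 51 runs of 50 bases and Klri1 and Klri2 share 46, so a part of their probes could be shared too.

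**Figure D2:**
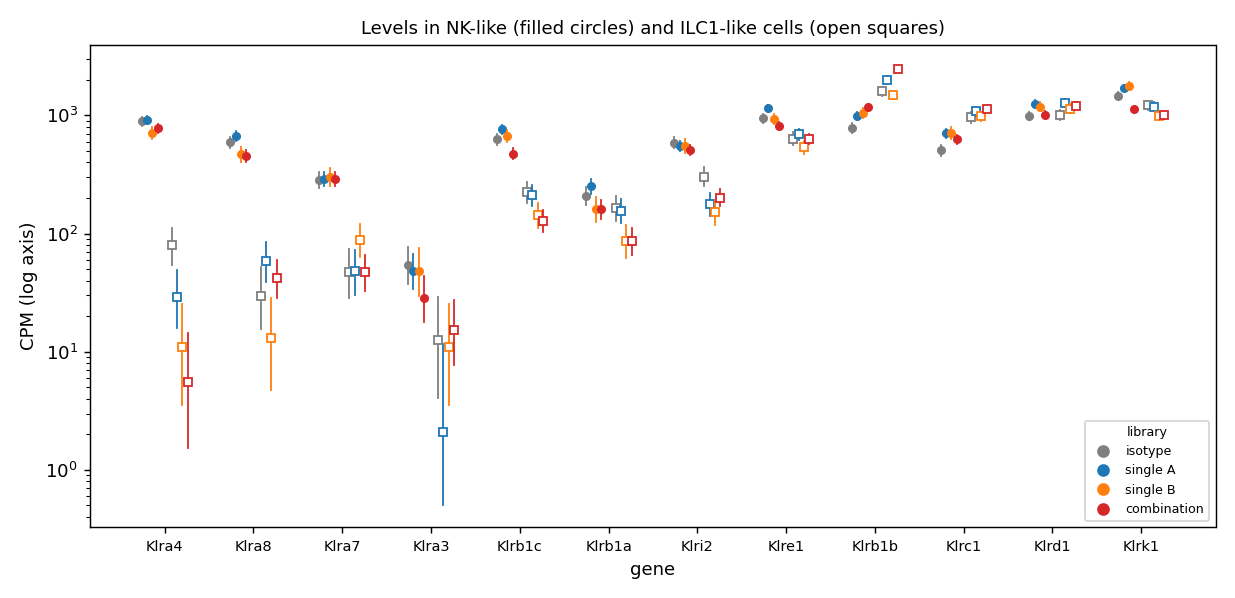
CPM (log axis) of 12 members in NK-like cells (filled circles) and ILC1-like cells (open squares), by library, with exact 95% Poisson intervals that cover counting error only. Klra4, Klra8, Klra7 and Klrb1c lie lower in the ILC1-like cells of all 4 libraries and Klrb1b lies higher. The lower end of the interval of Klra3 in the single A ILC1-like cells lies below the range drawn.

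In all, 4 of the 19 members tested were higher in ILC1-like cells and 8 in NK-like cells, where 6.91% and 7.27% of all genes tested were. The median log2 difference was -0.47 over the members and 0.02 over all genes. Klra4, Klra8, Klra7, Klrb1c and Klri2 stayed called in each alternative tried, and the other calls were lost in at least 1. Without the isotype library 6 members were called, all of them lower in ILC1-like cells, and without single A 8, without single B 10 and without the combination 9. Over all genes, 308 to 511 were then higher in ILC1-like cells and 359 to 446 lower, in place of 652 and 686. Klra2 was higher in ILC1-like cells, at 82.2, 31.3, 122 and 37.7 CPM against 28.2, 5.53, 65.7 and 34.2 (edgeR, log2 difference 1.04 ± 0.29 (SE), adjusted p = 0.0199), but its direction turned to -0.21 when libraries were not integrated, and it is described with the myeloid cells below.

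Read per cell, the Ly49 genes formed mixtures. Cells were thinned to 2223 UMIs, the 10th percentile over the 5 classes, so that shares can be compared. Cells with fewer UMIs were left out of the thinned shares. These rest on 122, 159, 70 and 129 NK-like and 43, 55, 39 and 74 ILC1-like cells. Shares in parentheses are those without thinning, over all cells of the class. Of NK-like cells, 75.9%, 83.5%, 79.8% and 80.7% had a UMI of at least 1 of the 6 Klra genes other than Klra2 and Klra17 (82.1%, 90.1%, 85.5% and 87.7%). In ILC1-like cells the shares were 23.3%, 22.9%, 20.2% and 19.1% (37.8%, 37.7%, 31.7% and 28.6%). In monocytes and macrophages, taken here as a background, they were 0.916%, 0.524%, 0.223% and 1.09% (3.48%, 2.22%, 1.22% and 4.89%), with a median depth of 17688 UMIs before thinning. The source of these UMIs was not tested. The shares in both classes lay above the background. In CD8 T cells they were 4.65%, 5.86%, 7.43% and 6.30%, and in DN T cells 30.4%, 40.5%, 26.2% and 44.7%.

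Among NK-like cells, 47.4%, 54.6%, 41.7% and 46.6% had a UMI of Klra4, 52.8%, 61.4%, 55.2% and 49.1% of Klra8 and 31.7%, 30.8%, 41.3% and 32.6% of Klra7 in thinned cells. Exactly 1 of the 6 genes was seen in 24.2%, 28.6%, 30.8% and 37.6% of them, and 3 or more in 20.0% (13.03 to 27.8), 23.7% (17.5 to 31.3), 23.5% (13.7 to 34.4) and 13.3% (7.87 to 20.3), with exact 95% binomial intervals. The share of NK-like cells with exactly 1 of these genes in the combination over that in isotype was 1.55 (1.06 to 2.28), and for 3 or more it was 0.666 (0.378 to 1.17). Against single A the latter ratio was 0.562 (0.334 to 0.946). All these intervals cover counting error only. The share of NK-like cells with any Klra gene in the combination over that in isotype was 1.08 (0.949 to 1.23), and in ILC1-like cells it was 0.825 (0.442 to 1.54), both with 95% intervals that include 1. Klra4 and Klra8 were found in the same NK-like cell 1.27, 1.13, 1.10 and 1.09 times as often as the product of their shares. For Klra7 and Klra4 these factors were 1.40, 1.19, 1.25 and 1.17, and for Klra7 and Klra8 1.19, 1.24, 1.36 and 1.02. All of these factors lie above 1. Klrb1b and Klrb1c had factors of 0.948, 0.936, 0.964 and 0.979.

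**Figure D3:**
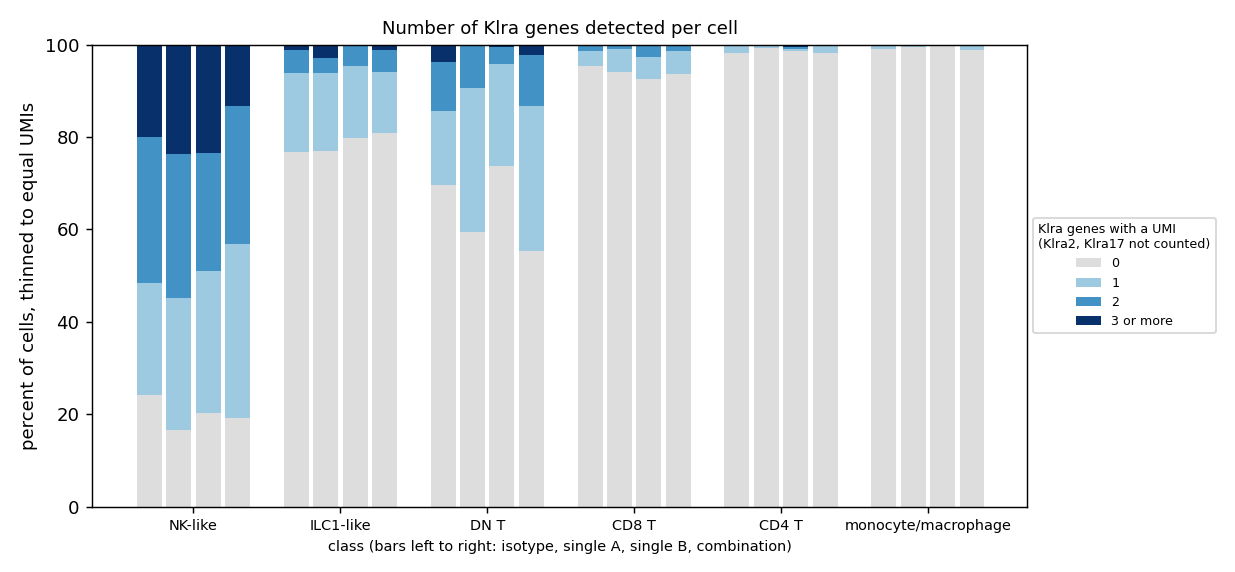
Percent of cells, thinned to equal UMIs, with UMIs of 0, 1, 2 or 3 and more of the 6 Klra genes other than Klra2 and Klra17, in 6 classes, with 1 stacked bar for each library. NK-like cells with at least 1 gene make up 75.9% to 83.5%, against 19.1% to 23.3% of ILC1-like cells and at most 1.09% of monocytes and macrophages.

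CD8 T cells held part of the family. Klrd1 had 482, 756, 605 and 399 CPM in CD8 T cells and 65.2, 48.6, 48.9 and 62.5 in CD4 T cells, and the ranges did not overlap (edgeR, log2 difference 3.25 ± 0.18 (SE), adjusted p = 2.38e-09). Klrc1 had 421, 891, 511 and 632 CPM in CD8 and 59.2, 71.4, 50.2 and 104 in CD4 T cells (edgeR, log2 difference 3.08 ± 0.20 (SE), adjusted p = 1.01e-08). The activating receptor gene Klrk1, which serves CD8 T cells as a costimulatory receptor, had 343, 589, 398 and 374 CPM in CD8 and 102, 43.3, 57.6 and 51.8 in CD4 T cells (edgeR, log2 difference 2.68 ± 0.23 (SE), adjusted p = 4.41e-07). Each of the 3 was higher in CD8 than in CD4 T cells of every library. Klrc3 (log2 difference 2.87 ± 0.35 (SE), adjusted p = 1.88e-05), Klre1 (log2 difference 2.60 ± 0.25 (SE), adjusted p = 1.34e-06) and Klri2 (log2 difference 2.22 ± 0.22 (SE), adjusted p = 2.08e-06) were also higher in CD8 T cells by the edgeR test. These 6 of 19 were the members called, all higher in CD8 T cells, where 5.7% of all genes were, and 7.29% of all genes were higher in CD4 T cells. At an unadjusted p under 0.05 there were 9 members, and DESeq2 called 7, all higher in CD8 T cells. The median log2 difference was 1.25 over the members and 0.00 over all genes.

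Between NK-like and CD8 T cells, Klrc1 differed least of the members tested. It had 506, 706, 711 and 629 CPM in NK-like cells, next to 421, 891, 511 and 632 in CD8 T cells, and the log2 difference of NK-like to CD8 T cells was 0.07 ± 0.18 (SE) (edgeR, adjusted p = 0.787). Its partner Klrd1 was higher in NK-like cells (edgeR, log2 difference 0.99 ± 0.16 (SE), adjusted p = 6.64e-05), as were Klrk1 (log2 difference 1.82 ± 0.21 (SE), adjusted p = 1.99e-06) and Klrc3 (log2 difference 1.02 ± 0.26 (SE), adjusted p = 0.00342). The widest differences were those of Klra8, with 0.557 to 7.97 CPM in CD8 T cells (log2 difference 7.28 ± 0.34 (SE), adjusted p = 3.44e-11), and Klra4, with 1.66 to 9.17 (log2 difference 7.02 ± 0.50 (SE), adjusted p = 5.69e-09). The Klrb1 genes ran from 5.77 ± 0.17 (SE) for Klrb1c to 3.64 ± 0.30 (SE) for Klrb1b. Klra3 (4.21 ± 0.48 (SE)) and Klra7 (3.95 ± 0.31 (SE)) lay within this range. In all, 16 of 19 members were higher in NK-like cells, where 20.6% of all genes tested were, and 1, Klra2, was higher in CD8 T cells, where 23.1% were. The median log2 difference was 3.33 over the members and 0.00 over all genes. The calls of Klrd1 and Klrc3 were lost without integration of the libraries, at log2 differences of 0.34 and 0.37, and that of Klrc3 also without the cells rich in macrophage markers, at 0.48. Those of Klra6 and Klra2 were lost in at least 1 alternative too, so that 13 of the 17 calls were kept in every alternative that gave a value.

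CD94 and NKG2A act as 1 receptor, so both genes were read in the same cell. Of CD8 T cells thinned to equal depth, 38.5%, 53.3%, 48.7% and 43.4% had UMIs of both (59.8%, 72.0%, 72.7% and 74.9% without thinning). The background in monocytes and macrophages was 0.166%, 0.101%, 0.024% and 0.388%. In ILC1-like cells the thinned share was 65.1%, 69.0%, 68.6% and 77.1%, in NK-like cells 34.7%, 37.7%, 47.9% and 37.6% and in DN T cells 17.8%, 26.5%, 19.2% and 27.9%. Many NK-like cells had Klrd1 with no Klrc1, at 49.8%, 53.1%, 42.01% and 48.4%, against 18.1%, 20.8%, 13.5% and 9.61% of ILC1-like cells. The share of CD8 T cells with both genes in the combination over that in isotype was 1.12 (0.861 to 1.47), an interval that includes 1, and at a resolution of 0.4 this ratio was 2.00. For CD8 T cells with Klrc1 it was 1.33 (1.09 to 1.62), and for those with Klrc1 but no Klrd1 it was 1.99 (1.16 to 3.41). The latter share was also higher in the combination than in single A, at 1.67 (1.17 to 2.39), and than in single B, at 1.93 (1.06 to 3.53), again with intervals for counting error only. Klrk1 and Klrc1 occurred in the same CD8 T cell 1.53, 1.24, 1.30 and 1.15 times as often as the product of their shares. These factors carry no interval either.

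DN T cells carried NK receptors that CD8 T cells held at low levels. The inhibitory Klra6 (Ly49F) was higher in this class than in the other 4, with 103, 111, 99.4 and 159 CPM against 3.98, 14.1, 8.36 and 12.8 in CD8 T cells, and the ranges did not overlap (edgeR, log2 difference 3.54 ± 0.42 (SE), adjusted p = 1.64e-05). Klra7 had 175, 247, 73.3 and 214 CPM against 11.9, 25.2, 14.5 and 20.7 (edgeR, log2 difference 3.18 ± 0.33 (SE), adjusted p = 2.86e-06). Klra5 had 51.6, 23.04, 44.5 and 35.0 CPM against 0.557 to 5.48 (edgeR, log2 difference 3.63 ± 0.56 (SE), adjusted p = 0.000189). The activating Klra4 and Klra8 did not pass the test, with adjusted p = 0.0714 and 0.313, and most UMIs of Klra4 came from single A (10.3, 83.0, 0 and 18.2 CPM, where the 0 of single B allows up to 7.85). Klrb1c (NK1.1), which also marks NKT cells, had 90.8, 171, 112 and 92.3 CPM in DN T and 17.4, 10.8, 9.47 and 8.91 in CD8 T cells (edgeR, log2 difference 3.26 ± 0.20 (SE), adjusted p = 6.78e-09).

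Klrb1 (4.46 ± 0.72 (SE)), Klrb1f (2.94 ± 0.34 (SE)), Klrb1a (2.49 ± 0.31 (SE)), Klri1 (3.65 ± 0.43 (SE)), Klrb1b (1.10 ± 0.31 (SE)) and Klre1 (0.66 ± 0.22 (SE)) were also higher in DN T cells, as log2 differences with an adjusted p of at most 0.0362 in edgeR. The difference of Klre1 turned to -0.30 when libraries were not integrated. Its call was also lost in DESeq2, without the library term, without single B or the combination and at a resolution of 0.4. It was lost too without the cells rich in macrophage markers (0.09) and where a UMI of a Cd3 gene was required (0.49). Klrc1 was lower in DN T cells, at 260.0, 505, 573 and 440.4 CPM (edgeR, log2 difference -0.54 ± 0.18 (SE), adjusted p = 0.04). The call of Klrc1 was lost without the library term, without isotype, single A or the combination, at a resolution of 0.4 and with doublets kept, with log2 differences of -0.29 to -0.53. That of Klrb1b was lost without single B or the combination, at a resolution of 0.4, without integration (0.51) and where a UMI of a Cd3 gene was required (0.64). Klrd1 had 382, 751, 665 and 626 CPM and Klrk1 487, 855, 570.3 and 685, and their tests gave adjusted p = 0.907 and 0.0755. In all, 10 of 19 members were higher in DN T cells, where 10.4% of all genes were, and 2 were higher in CD8 T cells, where 11.3% were. The median log2 difference was 1.70 over the members and 0.00 over all genes. Klrb1c, Klrb1f, Klra6 and Klra7 stayed called in each alternative tried, and at a clustering resolution of 0.4 they were the 4 members called. At that resolution 122 of 8808 genes were higher in DN T cells and 90 lower, in place of 978 and 1068 of 9442. The gamma delta T cell list was also higher in DN T than in CD8 T cells, at 1872, 1804, 1376 and 1377 CPM in the DN T cells. The NK cell list stood at 1156 to 1906 CPM in DN T and 707 to 1377 in CD8 T cells, and Ncr1, a receptor of NK cells, was higher in DN T cells (edgeR, log2 difference 3.53 ± 0.38 (SE), adjusted p = 4.46e-06). The part of either list in the result was not tested.

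**Figure D4:**
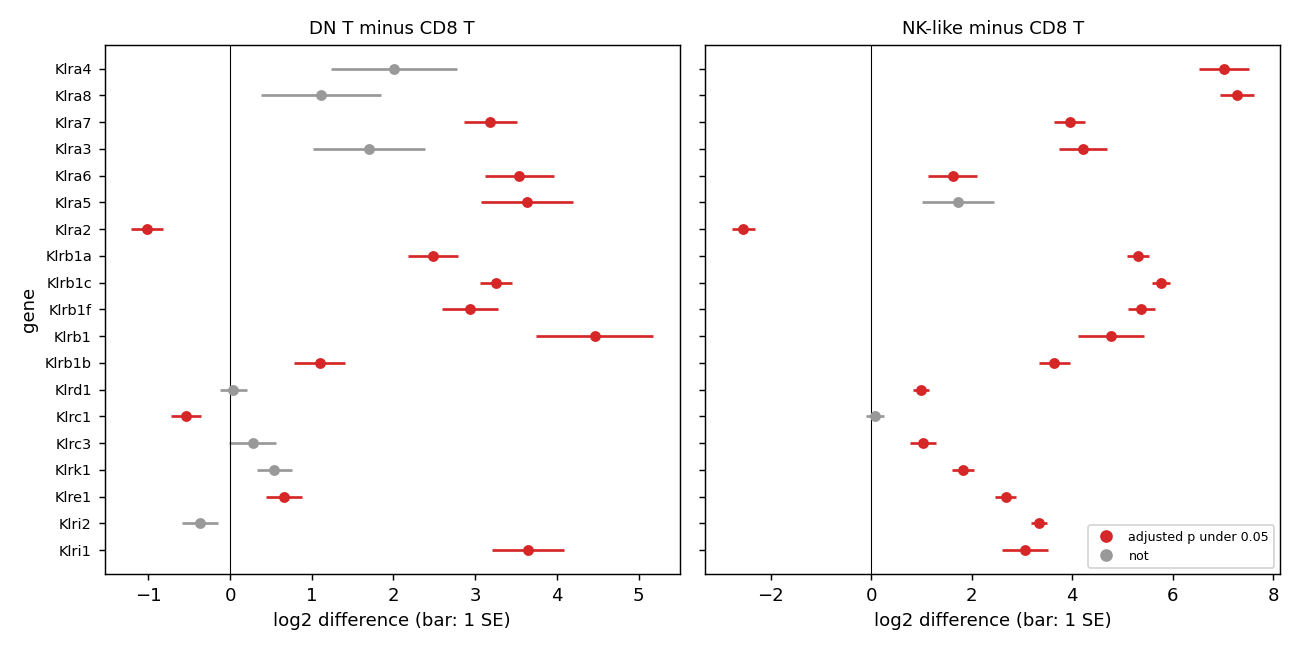
Log2 difference of each member tested, with 1 standard error, of DN T minus CD8 T cells and of NK-like minus CD8 T cells, red where the adjusted p of edgeR is under 0.05. Klra6, Klra7, Klra5 and the Klrb1 genes lie to the right of 0 in both comparisons, while Klra4 and Klra8 are red only for NK-like cells.

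Klra2 and Klra17 were receptors of myeloid cells here. Of all UMIs of Klra2, 1.53% lay in the 5 lymphocyte classes, and of those of Klra17, 2.02%. These classes hold 2599 of the 26786 cells kept, so such shares also follow the number and depth of the cells in each class. Apart from Klrg2 (1.19%), the other members had from 12.7% (Klrb1b) to 38.74% (Klrc1) of their UMIs in these classes. Klra2 (Ly49B) had 458, 470.2, 419 and 366 CPM in monocytes and macrophages, 257, 278, 323 and 309 in neutrophils and 138, 102, 107 and 127 in dendritic cells. In CD8 T cells it had 224, 89.9, 211 and 169.8 CPM, and without the cells that had 1% or more of their UMIs on macrophage markers 61.4, 34.9, 17.9 and 63.6. In NK-like cells the values were 28.2, 5.53, 65.7 and 34.2 CPM and, without such cells, 8.89, 5.53, 5.88 and 22.99. Klra2 was lower without these cells in every library of both classes but the single A NK-like cells, of which none was left out. Of CD8 T cells, 23.5%, 8.13%, 29.3% and 18.3% were such cells, and of NK-like cells at most 4.82%. Klra17 (Ly49Q), known from plasmacytoid dendritic cells and neutrophils, had 36.3, 33.7, 36.6 and 13.3 CPM in dendritic cells, 26.0, 14.4, 31.6 and 13.1 in neutrophils and no UMI in NK-like or ILC1-like cells, which allows at most 7.48 CPM in any of their libraries. All Klra17 UMIs of the dendritic cells were in 1 of their 2 clusters, the cluster with Siglech, Clec9a and Cd209a, and none in the Ccr7 cluster. The gene models Gm17631 and Gm44248 overlap Klra17.

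Other members also reached dendritic cells. Klri1 had 134, 152, 143 and 92.5 CPM there, above its 11.1 to 53.0 in NK-like cells. Klrd1 had 256, 286, 299 and 165 CPM, Klrk1 261, 330.1, 318 and 249.8 and Klrb1b 447, 533, 587 and 509, whereas Klrc1, the partner of Klrd1, had at most 9.83. In monocytes and macrophages Klrb1b had 81.8, 105, 45.5 and 97.9 CPM and Klrk1 37.7, 37.1, 15.01 and 42.3. Klrg2, which had no UMI in NK-like or DN T cells (at most 7.85 CPM allowed), had 1.86 to 3.43 CPM in monocytes and macrophages.

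Treatment groups were 1 library each, so no test between them was made, and the ratios below carry exact conditional 95% intervals that cover counting error only. A ratio was called at 1.5-fold with at least 50 UMIs over both libraries. In NK-like cells, 2 of 14 members were past 1.5-fold in the combination against isotype, 1 up and 1 down, where 5.96% and 4.21% of all genes were. Klrb1b was at 781, 986, 1056 and 1175 CPM, a ratio of 1.505 (1.34 to 1.69). Klra3 had a ratio of 0.525 (0.289 to 0.935). Of the members short of 1.5-fold, Klrk1 had 0.768 (0.697 to 0.845), Klrb1c 0.755 (0.651 to 0.876), Klra8 0.769 (0.661 to 0.896) and Klrc1 1.24 (1.07 to 1.44). Without the cells rich in macrophage markers 1 member was past 1.5-fold.

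In ILC1-like cells, 6 of 13 members were past 1.5-fold, 1 up and 5 down, where 7.51% and 7.04% of all genes were. Klrb1b stood at 1595 CPM in isotype and 2472 in the combination, a ratio of 1.55 (1.42 to 1.70), and the single antibodies had 2008 and 1478. Klri1 had 122, 52.2, 39.1 and 32.1 CPM and a ratio of 0.263 (0.153 to 0.44), and it was highest in isotype. In the cells with UMIs of both gates its ratio was above 1, at 2.23 (1.29 to 4.10). Klrb1a had a ratio of 0.527 (0.366 to 0.757), Klrb1c 0.573 (0.424 to 0.775), Klri2 0.662 (0.516 to 0.85) and Klra2 0.459 (0.265 to 0.787). Without cells with 1% or more macrophage marker UMIs, Klrb1b had 1.31 (1.19 to 1.45) and Klra2, whose direction turned, 1.37 (0.57 to 3.79).

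In CD8 T cells, 6 of 11 members were past 1.5-fold, 4 up and 2 down, where 5.08% and 5.41% of all genes were. Klrc1 stood at 421, 891, 511 and 632 CPM, a ratio of the combination to isotype of 1.5002 (1.39 to 1.62), and single A was highest. Over the 11 members with at least 50 UMIs the median ratio was 1.09 for the combination and 1.72 for single A, both to isotype, against 0.978 and 1.02 over all such genes, and of the combination to single A it was 0.824 over 12 members. Other lymphocyte genes were also higher in single A than in isotype CD8 T cells. The T cell list stood at 9178 against 4979 CPM, the NK cell list at 1377 against 777 and the ILC1 list at 2368 against 1509. The gamma delta T cell list was lower, at 47.6 against 91.6, as were the macrophage markers, at 6832 against 17254. The part of these shifts in the ratios of the members was not tested. Without the cells rich in macrophage markers the ratio of Klrc1 was 1.23 (1.11 to 1.36), and 2 members were past 1.5-fold, as many as without integration of the libraries. Klra6 had 3.98, 14.1, 8.36 and 12.8 CPM and a ratio of 3.22 (1.51 to 7.88), Klra7 1.73 (1.09 to 2.86) and Klrc3 1.52 (1.07 to 2.19). Klrb1c had 0.511 (0.309 to 0.844) and Klri2 0.548 (0.434 to 0.692). At a resolution of 0.4 these last 2 ratios were 0.982 and 0.968 and that of Klra7 was 4.71, and without the cells rich in macrophage markers that of Klrb1c was 0.221. CD8 T cells lay in 2 clusters. In cluster 6 Klra7 had 13.3, 74.4, 56.6 and 64.8 CPM and in cluster 15 11.6, 16.1, 6.62 and 12.2. Klra6 had 7.97, 56.7, 46.0 and 61.6 CPM in cluster 6 and 3.06, 6.23, 1.32 and 3.44 in cluster 15. Isotype was the lowest library in cluster 6 for both genes, but its 60 CD8 T cells there held few UMIs of either. This limits what the order of the libraries can show.

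In DN T cells, 6 of 12 members were past 1.5-fold, 5 up and 1 down, where 11.4% and 8.87% of all genes were. Klrb1b had 105, 87.6, 269 and 278 CPM and a ratio of 2.64 (1.94 to 3.67), Klre1 2.20 (1.70 to 2.89), Klrc1 1.69 (1.37 to 2.10), Klrd1 1.64 (1.38 to 1.96) and Klra6 1.54 (1.10 to 2.20). The ratio of Klrc1 was 1.29 at a resolution of 0.4 and 1.31 without integration. Klra2 had 0.635 (0.439 to 0.918), and its direction turned without the cells rich in macrophage markers, to 1.59. Klrb1b was the member whose ratio of the combination to isotype lay at or past 1.5 in NK-like, ILC1-like and DN T cells alike, and in CD8 T cells it was 1.34 (1.10 to 1.65). With subclusters as classes it was 1.30 in NK-like and 1.38 in ILC1-like cells, and without integration 1.27 in ILC1-like and 6.92 in DN T cells. These comparisons share the isotype library.

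**Figure D5:**
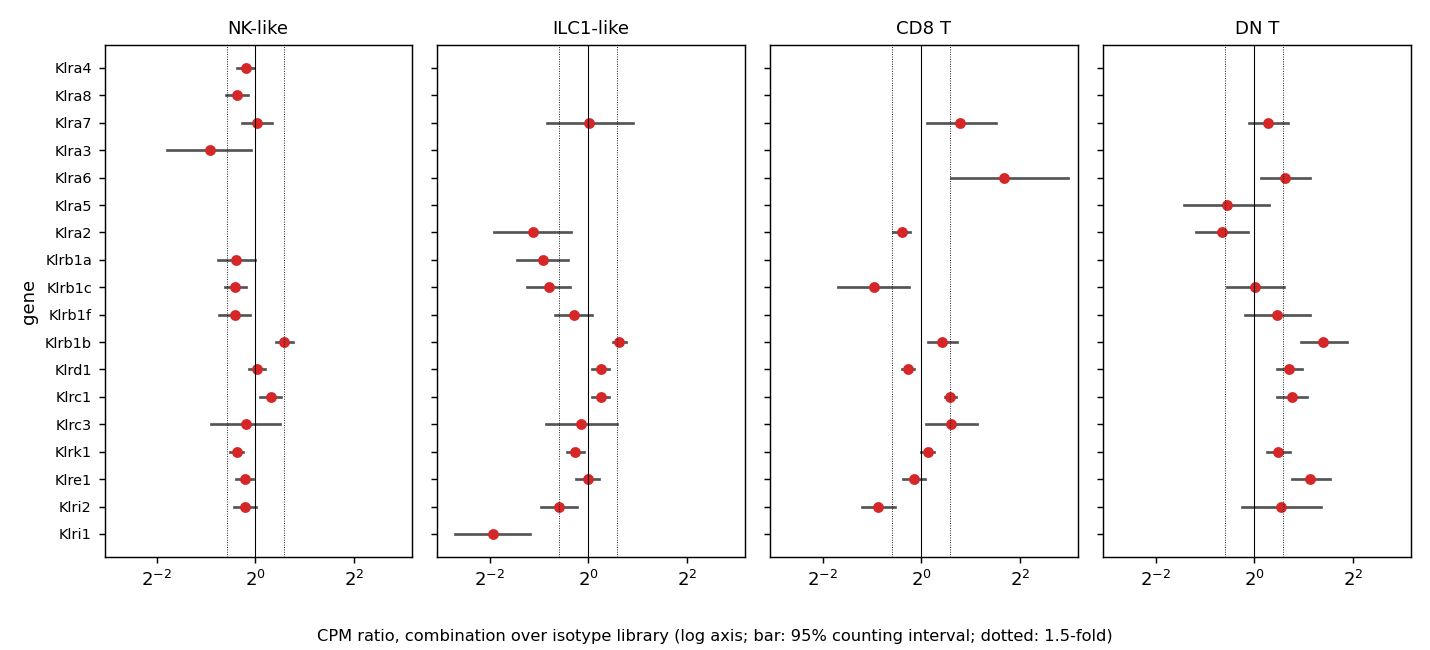
Ratio of CPM in the combination to CPM in isotype (log axis) for the members with at least 50 UMIs over both libraries, in NK-like, ILC1-like, CD8 T and DN T cells, with exact conditional 95% intervals that cover counting error only. Dotted lines mark 1.5-fold, and Klrb1b lies at 1.505 in NK-like, 1.55 in ILC1-like and 2.64 in DN T cells.

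The partners of the receptors were read from lists. Of 12 adaptors and kinases of activating receptors, all 12 were tested, and 7 were higher in NK-like than in CD8 T cells and 2 lower, where 20.6% and 23.1% of all genes tested were. Tyrobp, the adaptor of Ly49D and Ly49H, ranged from 2574 to 2923 CPM in NK-like cells (edgeR, log2 difference 1.47 ± 0.26 (SE), adjusted p = 0.000136), and Hcst, the adaptor of NKG2D, from 178 to 257 (edgeR, log2 difference 0.60 ± 0.14 (SE), adjusted p = 0.00195). Sh2d1b1 (2.23 ± 0.29 (SE)), Syk (1.19 ± 0.32 (SE)), Plcg2 (0.88 ± 0.25 (SE)), Fcer1g (0.82 ± 0.25 (SE)) and Pik3cd (0.53 ± 0.10 (SE)) were the others higher in NK-like cells, and Grb2 (-0.70 ± 0.10 (SE)) and Zap70 (-0.57 ± 0.14 (SE)) were lower. Between ILC1-like and NK-like cells, 3 of the 12 were called, all lower in ILC1-like cells: Cd247, the zeta chain (edgeR, log2 difference -1.94 ± 0.20 (SE), adjusted p = 3.34e-06), Syk (-1.21 ± 0.36 (SE)) and Pik3cd (-0.52 ± 0.10 (SE)), a direction taken by 7.27% of all genes. Of the 12, 1 was called between CD8 and CD4 T cells, lower in CD8 T cells like 7.29% of all genes, and 1 was higher and 1 lower in DN T than in CD8 T cells, where 10.4% and 11.3% of all genes were.

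Of the 13 ligands, 7 were tested. Clec2d, the ligand of Klrb1b, was higher in NK-like than in CD8 T cells (log2 difference 0.73 ± 0.09 (SE), adjusted p = 3.99e-06) and lower in ILC1-like than in NK-like cells (log2 difference -0.73 ± 0.10 (SE), adjusted p = 4.86e-05) in edgeR. Clec2i followed it, at 2.11 ± 0.17 (SE) and -0.58 ± 0.18 (SE), and H2-K1 was higher in NK-like than in CD8 T cells at 0.33 ± 0.09 (SE). The NKG2D ligands Raet1d (-2.26 ± 0.53 (SE)) and Ulbp1 (-1.19 ± 0.28 (SE)) were lower in NK-like than in CD8 T cells. Of the 7, 1 was higher and 2 lower in CD8 than in CD4 T cells, where 5.7% and 7.29% of all genes were, and 3 were higher and 1 lower in DN T than in CD8 T cells, where 10.4% and 11.3% were. Of 5 phosphatases and adaptors of inhibitory receptors, Ptpn6 (SHP-1) was higher in ILC1-like than in NK-like cells at 0.52 ± 0.15 (SE). Inpp5d (SHIP-1) was lower at -0.54 ± 0.11 (SE), and 6.91% and 7.27% of all genes took these directions. Between NK-like and CD8 T cells 1 of the 5 was higher and 1 lower, where 20.6% and 23.1% of all genes were. In CD8 T cells 1 was higher than in CD4 T cells, like 5.7% of all genes. In DN T cells 1 was lower than in CD8 T cells, like 11.3%.

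For the 3 members with the most UMIs, the genes with the most similar level over the 20 sums of class and library were found among 10685 genes. Klrd1 was most like Klrk1 (Pearson r = 0.976 on log2 CPM), Klrc1 (0.963) and Atp8b4 (0.963). Klrk1 was most like Klre1 (r = 0.983), Klrd1 (0.976) and Dapk2 (0.976), and Klrc1 was most like Klrd1 (r = 0.963), Rcn1 (0.943) and Crtam (0.932). The 4 sums of a class share its cells' type and the 5 sums of a library share its library, so these values are a description.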

How the data were processed

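The authors deposited whole-number counts, the UMIs of 19059 genes in each barcode called as a cell, without normalization. Viable CD45+ cells were sorted, fixed, hybridized with Chromium Flex probes and counted with Cell Ranger (7.0.0 in the labels, 7.2.0 in the file headers) on mm10.

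Cells were kept from 500 detected genes up and to 10% mitochondrial UMIs, without the 5% of highest Scrublet doublet scores in each library (scanpy 1.11.5), where the authors used DoubletFinder. SCTransform, anchor integration on 3000 features, 30 principal components and a resolution of 0.8 followed the methods of the study, without the genes whose symbol starts with Klr (Seurat 5.3.0, sctransform 0.4.2, R 4.3.3), and gave 27 clusters. A cluster of 2154 cells carrying T cell and macrophage genes together entered no comparison. The genes of the gates are no findings.

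UMIs were summed per class and library, 20 sums, and tested with edgeR 4.0.16 (TMM, filterByExpr, two-sided, threshold 0.05). On simulated counts for NK-like against CD8 T cells over 9468 genes, 99% of 200 genes changed 3-fold were recovered and 4.3% of calls were false. The changed genes were drawn from well-counted genes, with a fixed spread and no difference between libraries. These rates therefore do not extend to members with few UMIs. Between treatments no test was made. Thinned shares are means of 100 draws. Limits for a 0 are those of 3 UMIs, for counting error only. Members with at least 50 UMIs over the 5 classes are named with levels, beside the gate genes, the pathway lists and, for the 3 members with the most UMIs, the 3 most similar genes. The members and gene lists were chosen with earlier results of these data known. Genes were placed with GENCODE on GRCm38, and RefSeq held upstream sequences for 19 members.

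The alternatives were DESeq2 1.42.0, other scalings, filters, folds, UMI minimums, resolutions and cell filters, no library term, no integration, doublets kept, subclusters as classes, no cells rich in macrophage markers, no thinning and leaving out each library. A required Cd3 UMI and the alternatives for the ratios of DN T cells were added after the data were seen. Other steps used pandas 2.3.3, numpy 2.4.6, scipy 1.17.1 and matplotlib 3.10.9 in Python 3.11.15.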

Additional observations from a re-analysis of the deposited data

Results flagged for a closer look

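In the NK-like, ILC1-like, CD8, CD4 and DN T cells, 3 members had a ratio of the combination to isotype above 1 in some of these classes and below 1 in others, each with a 95% counting interval that leaves out 1. Klre1 had 2.20 in DN T cells and 0.861 in NK-like cells. Klrd1 had 1.19 in ILC1-like cells and 1.64 in DN T cells, and 0.829 in CD8 T cells. Klrk1 had 1.41 in DN T cells, and 0.768 in NK-like cells, 0.834 in ILC1-like cells and 0.506 in CD4 T cells. With 1 library per group the difference between the classes was not tested.

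The cluster that carries T cell and macrophage genes together, which entered none of the comparisons, held the family too. In it, 4 of 21 members were past 1.5-fold up and 2 down in the combination against isotype, where 4.98% and 6.03% of all genes were. The ratio was 1.86 (1.79 to 1.95) for Klrc1 and 1.82 (1.52 to 2.17) for Klrc3. It was 1.68 (1.34 to 2.12) for Klra6 and 1.53 (1.04 to 2.27) for Klra5. Klrg2 had 0.384 (0.253 to 0.57) and Klra17 0.46 (0.35 to 0.601). These intervals cover counting error only. The median ratio was 0.934 over the members and 0.948 over all genes tested.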

How the results depend on the processing

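No paired analysis was possible because each treatment group is 1 library, and the class comparisons already hold the library as a term. Without that term 6 members differed between ILC1-like and NK-like cells in place of 12. Over all genes, 372 of 9274 were then higher in ILC1-like cells and 437 lower, in place of 652 and 686 of 9442. Leaving out each library in turn gave 6 to 10 for this comparison, 16 to 18 in place of 17 between NK-like and CD8 T cells, 6 to 7 in place of 6 between CD8 and CD4 T cells and 9 to 12 in place of 12 between DN T and CD8 T cells. At a resolution of 0.4 the count between DN T and CD8 T cells was 4. There 122 of 8808 genes tested were higher in DN T cells and 90 lower, in place of 978 and 1068 of 9442. Without single libraries, 308 to 511 genes were higher in ILC1-like than in NK-like cells and 359 to 446 lower. Calls over all genes thus fell in these settings too. The number of members past 1.5-fold in NK-like cells was 2, and it was 1 with median-of-ratios scaling, with at least 100 UMIs, at a resolution of 0.4, with doublets kept or without cells rich in macrophage markers. At 2-fold it was 0 in NK-like cells, 2 in ILC1-like cells in place of 6, 1 in CD8 T cells in place of 6 and 2 in DN T cells in place of 6. In CD8 T cells it was 2 without integration and 2 without cells rich in macrophage markers. The ratio of the share of CD8 T cells with both Klrc1 and Klrd1, 1.12, was 0.860 with at least 2 UMIs of each and 2.00 at a resolution of 0.4.

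The direction turned for Klra2 in several settings. Its ratio in ILC1-like cells was 1.37 without cells rich in macrophage markers and 1.23 with subclusters, and in DN T cells it was 1.09 as a mean over cells, 1.25 at a resolution of 0.4, 1.73 without integration and 1.59 without cells rich in macrophage markers. Its log2 difference of ILC1-like to NK-like cells was -0.21 without integration and -0.21 with subclusters, and that of DN T to CD8 T cells was 0.12 without integration. The log2 difference of Klra6 between NK-like and CD8 T cells was -0.55 at a resolution of 0.4, and that of Klre1 between DN T and CD8 T cells was -0.30 without integration. The cause was not tested. Klra3, Klra5, Klra17 and Klrb1 rest on at most 224 UMIs each in the 5 classes, which limits what their levels can show.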
